A study of Homo sapiens with 9 samples.

Results

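The nuclear genes that encode the subunits of the oxidative phosphorylation complexes were examined in HMC3 cells. Members were the protein-coding genes of the deposited tables whose symbols name a nuclear subunit of complexes I to V (the NDUFA, NDUFB, NDUFC, NDUFS and NDUFV series, SDHA to SDHD, the UQCR genes with CYC1, the COX4 to COX8 genes, and the ATP5F1, ATP5M and ATP5P genes), which gave 88 genes of the 61544 listed. Of these, 37 belonged to complex I, 4 to complex II, 9 to complex III, 19 to complex IV and 19 to complex V. NDUFA4 and its paralog NDUFA4L2 were counted with complex IV, where the NDUFA4 protein is found despite its name. Symbols and the protein-coding category chose the members. No measured value entered the rule, though earlier results of these data were known when it was chosen.

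HMC3 is a human microglial line immortalized with SV40 antigen, and every library came from this single line, labelled wild type. VEH cells received DMSO alone. SLO ½ cells received 5 µM SBI-0206965, 0.5 µM O-151 and 0.5 µM Lopinavir, SLO cells received 10 µM, 1 µM and 1 µM of the same compounds, and RNA was collected after 6 days of treatment with 3 libraries in each group. No source says whether the 3 libraries of a group came from separate cultures, so the p-values measure the spread between these libraries, which may be technical.

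Oxidative phosphorylation is the final stage of respiration in the inner mitochondrial membrane. Complex I takes electrons from NADH and complex II takes them from succinate, both pass them through coenzyme Q to complex III, cytochrome c carries them to complex IV, and complex IV reduces oxygen. Complexes I, III and IV pump protons across the membrane, and complex V lets them flow back to make ATP. Complex II is encoded wholly in the nucleus, whereas the other complexes also hold subunits encoded in mitochondrial DNA, so that transcripts from both genomes contribute to each of them.

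Between 14834295 and 19674841 reads per library were assigned to genes, and the members took 0.479 to 0.510% of them in VEH, 0.491 to 0.493% with SLO ½ and 0.446 to 0.461% with SLO. The line was labelled as microglia, yet 4 of 16 microglial markers were expressed highly enough to be tested, and P2RY12, C1QA, C1QB and GPR34 had no read in any library. The summed level of the 16 markers was 145 to 164 CPM (reads scaled to a common library size) in VEH, 184 to 194 with SLO ½ and 189 to 209 with SLO. Summed fibroblast and mural cell markers, led by COL1A1 and TAGLN, ran from 3053 to 3494 CPM in VEH, 4139 to 4246 with SLO ½ and 5164 to 5461 with SLO, with none of the 11 at 0. Summed astrocyte and neuron markers ran from 24.8 to 30.2, 45.0 to 48.6 and 55.7 to 60.5 CPM. The part of these markers in the results that follow was not tested.

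Most nuclear subunit genes that changed at the full dose were lower in SLO than in VEH, and the changes were small. Of the 78 members with enough reads to test, 41 were lower and 9 were higher in SLO at a Benjamini-Hochberg adjusted p below 0.05 in edgeR's quasi-likelihood test, and 28 did not pass. Among all 14727 genes tested, 64.9% were called in this comparison, 32.1% lower and 32.9% higher. The members' share of calls, 64.1%, was thus near the background, whereas their direction was uneven. The median log2 fold change was −0.17 over the members and 0.01 over all genes tested. Only NDUFC2, which rose, and NDUFS4, which fell, were both called and changed by more than 1.5-fold, against 25.9% of all genes tested. In these bulk libraries, fewer cells expressing a gene and less of its RNA per cell cannot be told apart.

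At the lower dose, 20 members were lower and 8 were higher in SLO ½ than in VEH, or 35.9% of those tested, against a background of 52.0% called, 25.3% lower and 26.7% higher. The median member change was −0.04 on the log2 scale. With library totals alone as the scaling, in place of the trimmed mean of M-values (TMM), this split became 14 lower and 15 higher. Between the doses, 34 members were lower and 3 higher in SLO than in SLO ½, or 47.4%, with 41.1% of all genes called, 20.3% lower and 20.8% higher. The members' median difference between the doses was −0.13. The values of the 3 libraries of each group did not overlap for 53 members in SLO against VEH (67.9%, against 66.7% of all genes tested), for 40 in SLO ½ against VEH (51.3% against 58.3%) and for 45 between the doses (57.7% against 51.0%). Both doses were compared with the same VEH libraries, so the comparisons are set side by side and were not counted as independent.

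**Figure D1:**
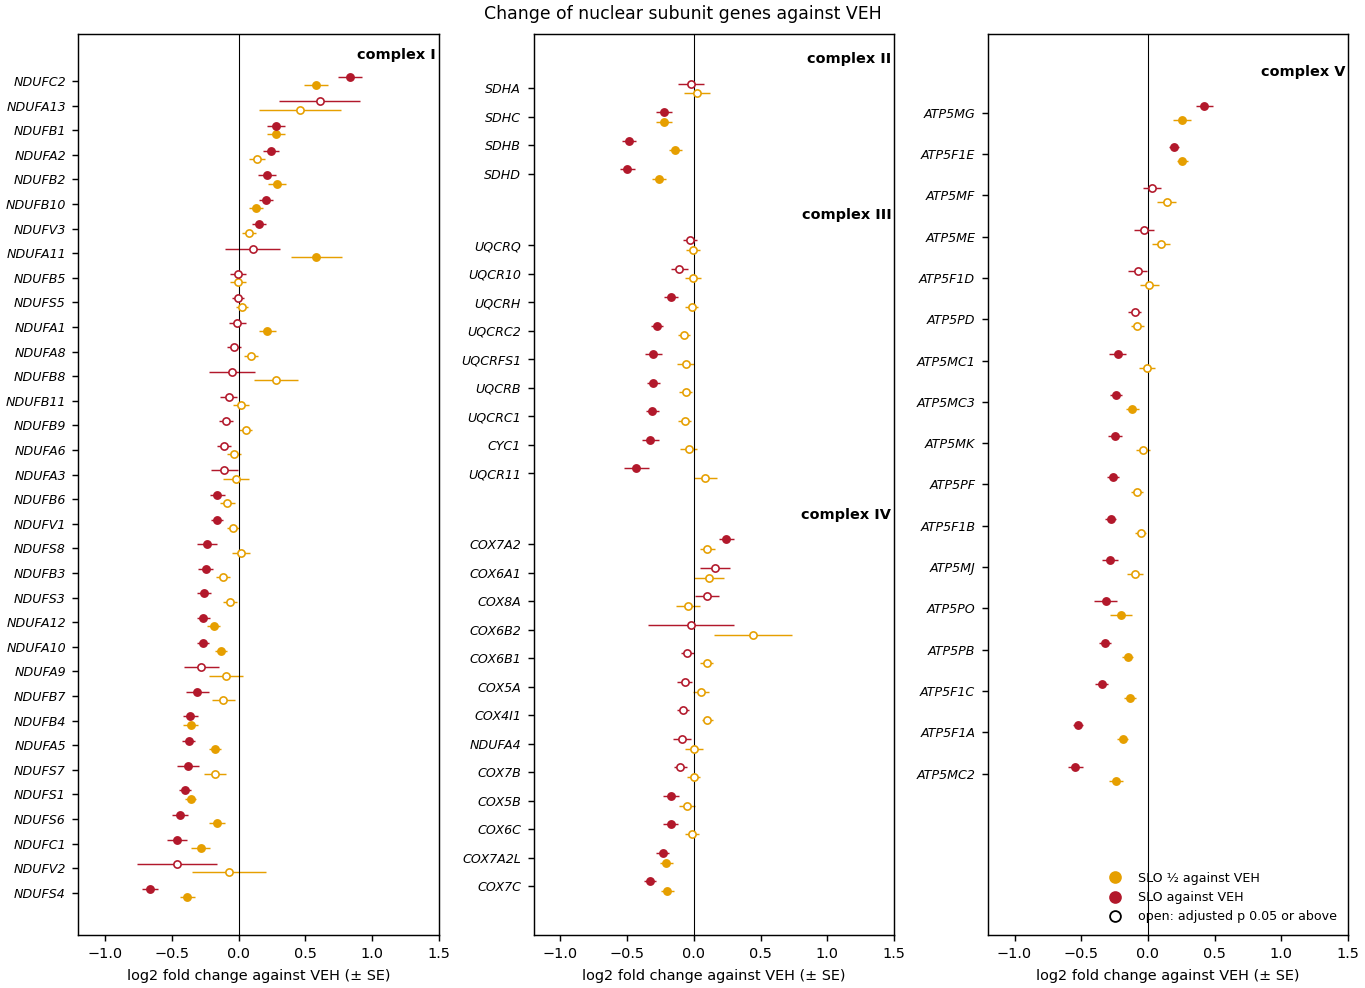
Log2 fold change against VEH (x axis) of tested members, grouped by complex, for SLO ½ (orange) and SLO (red), with bars of 1 SE and filled points where the adjusted p was below 0.05. Most filled points lie below 0 in SLO, whereas NDUFC2 and ATP5MG lie above it at both doses, and 1 tested member is not drawn.

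The 10 members that were not tested had too few reads. NDUFA7, COX4I2, COX6A2, COX7A1, COX7B2, COX8C, NDUFA4L2, ATP5MGL and the readthrough genes NDUFC2-KCTD14 and ATP5MF-PTCD1 make up this group, and 6 of the 10 had no read in any library. Several of these are the muscle, lung or testis forms of a subunit whose common form was expressed. Some tested members lost reads to a neighbour, because reads that fall on 2 genes of the same strand were not assigned to either. NDUFV2, for instance, shares 84.7% of its coding bases with another annotated gene on its strand and stood at 1.14 ± 0.28 CPM (SD, n = 3) in VEH.

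Scaled by annotated gene length, the levels of the members spanned a wide range. For 92.1% of the genes compared, the length behind the TPM matched all annotated exons merged, which is not the length of 1 transcript. NDUFB9, with 16591 such bases, held 64.4 CPM and 18.3 TPM in VEH, and NDUFA8, with 804, held 52.6 CPM and 308 TPM. Ranks and medians in TPM thus depend on the annotation as well as on the reads. In TPM, the deposited length-scaled unit, the median VEH level of the tested members was 99.1, and the medians by complex were 40.5 for complex I, 124 for complex II, 111 for complex III, 124 for complex IV and 109 for complex V. ATP5F1B, the catalytic beta subunit of ATP synthase, was the highest member at 1484 TPM, and NDUFS5, at 891 TPM, was the highest in complex I. The lowest tested values were those of COX6B2 at 1.05 TPM and NDUFA13 at 1.31 TPM, both of which share over 50% of their coding bases with another gene on their strand. SDHA, at 5.50 TPM against 129 TPM for SDHC, shares 84.5% of its coding bases in the same way, so its level was read from the rest of the gene.

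**Figure D2:**
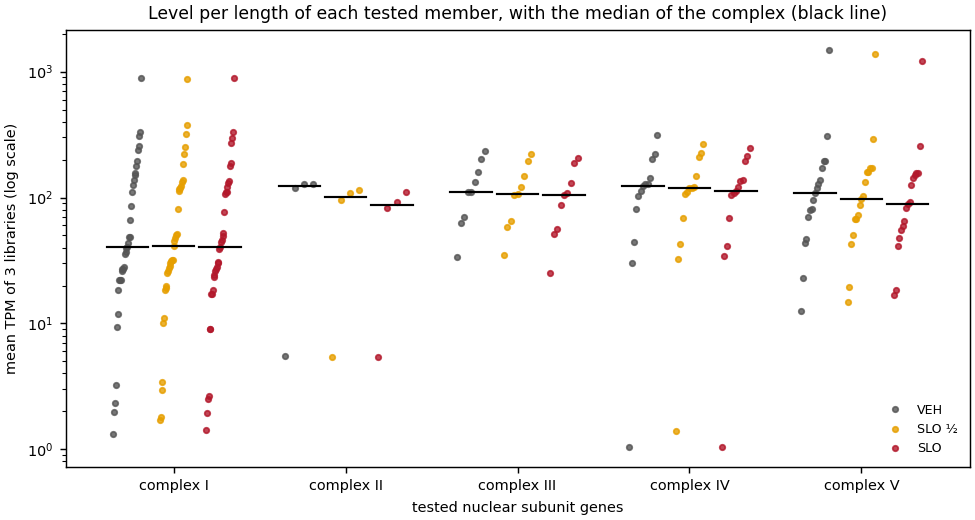
Mean TPM of 3 libraries (log axis) of each tested member by complex, in VEH, SLO ½ and SLO, with the median of each complex as a black line. VEH medians lie between 40.5 TPM for complex I and 124 TPM for complexes II and IV.

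The median change was not of the same size in each complex. At the full dose the median log2 fold change was −0.16 in complex I, −0.35 in complex II, −0.30 in complex III, −0.08 in complex IV and −0.25 in complex V. The numbers called lower and higher were 16 and 6 of 35 tested in complex I, 3 and 0 of 4 in complex II, 7 and 0 of 9 in complex III, 4 and 1 of 13 in complex IV, and 11 and 2 of 17 in complex V. The background at this dose was 64.9% of all genes tested called, 32.1% lower and 32.9% higher. The share called was near this background in complex I and above it in complexes II, III and V. In complex IV it was below the background, at 38.5%. Taken by library, the complex IV medians of log2 CPM minus the VEH mean overlapped. They ran from −0.083 to 0.080 in VEH and from −0.13 to −0.016 in SLO. In the other complexes the VEH and SLO libraries did not overlap. Differences between complexes were not tested.

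The members' CPM summed to 5113 ± 147 (SD, n = 3) in VEH, against 4896 ± 26.7 for SLO ½ and 4416 ± 102 for SLO, or 95.8% and 86.4% of the VEH sum. By complex, the SLO sum was 88.9% of VEH for complex I, 76.5% for complex II, 84.0% for complex III, 91.9% for complex IV and 84.0% for complex V. At SLO ½ the same sums stood at 94.5%, 87.5%, 96.8%, 98.6% and 96.0%. Complex II was thus the lowest against VEH at both doses, and complex IV the least changed.

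**Figure D3:**
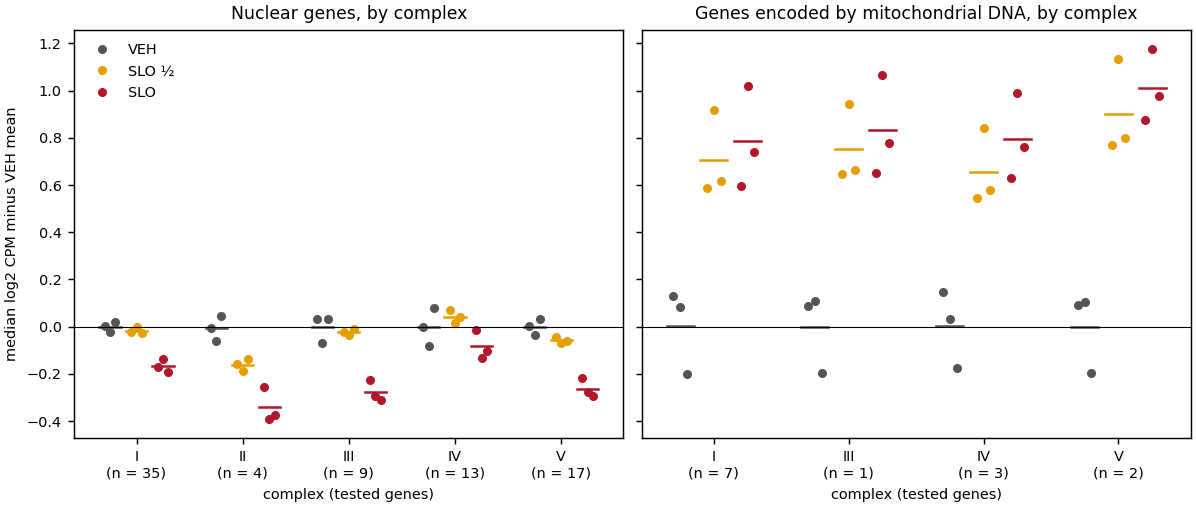
Median over the tested members of each complex of log2 CPM minus the VEH mean, 1 point per library with the group mean as a line, for the nuclear genes (left) and the 13 mitochondrially encoded genes (right). Complex III libraries lie between −0.07 and 0.03 in VEH, −0.04 and −0.01 with SLO ½ and −0.31 and −0.22 with SLO, and the mitochondrially encoded subunits lie above VEH at both doses.

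Within complex I, the nuclear core subunits carried the clearest fall. The core holds the flavin and iron-sulfur clusters that pass electrons from NADH to coenzyme Q, and 6 of its 7 nuclear members fell in SLO with none rising, at a median of −0.38. Of the 28 tested accessory subunits, which surround the core and are needed for its assembly or stability, 10 fell and 6 rose, at a median of −0.09. In SLO ½ against VEH, 2 core subunits fell and none rose, and 7 accessory subunits fell and 6 rose. The core was called in 85.7% in SLO and 28.6% in SLO ½, and the accessory subunits in 57.1% and 46.4%. Of all genes tested, 64.9% were called in SLO and 52.0% in SLO ½.

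NDUFS1, the largest core subunit, which carries iron-sulfur clusters, held 167, 177 and 169 CPM in VEH, 127, 135 and 138 in SLO ½ and 129, 125 and 135 in SLO. Both treated groups lay below every VEH library and overlapped each other. NDUFS1 was 22.0% lower in SLO ½ and 24.3% lower in SLO than in VEH, with adjusted p of 5.38e-08 and 3.12e-09, and the difference between doses had a 95% interval of −0.13 to 0.05 on the log2 scale.

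Other core members changed less than NDUFS1. NDUFS3 fell by 0.26 ± 0.05 (SE) on the log2 scale in SLO (adjusted p = 1.57e-04), NDUFS7 by 0.38 ± 0.08 (2.21e-04), NDUFS8 by 0.24 ± 0.07 (0.00551) and NDUFV1 by 0.16 ± 0.05 (0.00314). None of these 4 passed the test in SLO ½, where NDUFS7 came closest at −0.18 ± 0.08 (adjusted p = 0.0681). NDUFV1, which binds NADH, had values of 89.8 to 93.1 CPM in VEH and 79.8 to 83.5 in SLO. The falls of NDUFS8 and NDUFV1 no longer passed when library totals alone set the scaling, at −0.16 and −0.09. For NDUFS8 the lowest VEH library, at 23.9 CPM, overlapped the highest SLO library, at 24.2. NDUFV2, the partner of NDUFV1, was the core member that did not pass, and its interval of −1.07 to 0.15 was too wide to place it.

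Among the accessory subunits, NDUFS4 fell furthest. NDUFS4 helps hold the NADH-oxidizing module on the complex, and loss of the gene causes Leigh syndrome. Its levels (chr5:53560633-53683338) were 46.0, 43.1 and 43.6 CPM in VEH, 33.8, 33.5 and 34.2 in SLO ½ and 29.6, 26.9 and 27.2 in SLO. The 3 groups were fully separated. NDUFS4 fell by 36.9% in SLO (log2 fold change −0.66 ± 0.06, adjusted p = 6.56e-11) and by 23.4% in SLO ½ (−0.39 ± 0.06, 1.79e-06), and it was 17.5% lower in SLO than in SLO ½ (−0.28 ± 0.06, 4.96e-04). NDUFS6, an accessory subunit of the same module, went from 48.3 ± 2.97 CPM (SD, n = 3) in VEH to 43.2 ± 1.46 and 35.7 ± 2.17, with log2 fold changes of −0.16 ± 0.06 and −0.44 ± 0.06 at the 2 doses, the first lost without VEH replicate 3 (−0.11) or SLO ½ replicate 3 (−0.14) and with library totals alone as the scaling (−0.11). NDUFS5, the complex I member with the highest TPM, did not pass, with a SLO interval of −0.10 to 0.09.

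Several accessory subunits of complex I went the other way. NDUFC2, a subunit of the membrane arm (chr11:78068297-78079862), held 10.0, 11.4 and 10.9 CPM in VEH, 16.6, 16.2 and 15.5 in SLO ½ and 18.0, 18.4 and 21.4 in SLO. No group overlapped another. It rose 1.79-fold in SLO (log2 fold change 0.84 ± 0.09, adjusted p = 2.33e-09) and by 0.58 ± 0.09 in SLO ½ (3.95e-06). The further rise between the doses, 0.26 ± 0.08 (0.0137), was lost without SLO ½ replicate 3 (0.23) or SLO replicate 3 (0.18). Reads on the 76.9% of its coding bases that NDUFC2-KCTD14 also covers were not counted, so this change was read from the rest of the gene.

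NDUFB1, NDUFB2 and NDUFB10, all of the membrane arm, rose at both doses. NDUFB1 went from 20.5 to 21.3 CPM across the VEH libraries to 24.6 to 25.8 with SLO ½ and 24.7 to 26.9 with SLO, a rise of 0.28 ± 0.07 at both doses (adjusted p = 8.97e-04 and 6.28e-04). NDUFB2 rose by 0.29 ± 0.07 in SLO ½ (5.92e-04) and 0.21 ± 0.07 in SLO (0.00763), the latter lost without SLO replicate 2 (0.16). NDUFB10 rose by 0.13 ± 0.05 (0.0451) and 0.21 ± 0.05 (0.00161), and its call in SLO ½ was lost under many other settings, at 0.04 to 0.14. NDUFA2 rose in SLO by 0.25 ± 0.06 (5.78e-04) and NDUFV3 by 0.15 ± 0.05 (0.00945), the latter lost without VEH replicate 1 (0.11), and neither passed in SLO ½.

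NDUFA1 and NDUFA11 showed a different order of the groups. NDUFA1 held 30.3, 28.8 and 30.3 CPM in VEH, 36.4, 33.1 and 34.5 in SLO ½ and 29.2, 29.5 and 30.3 in SLO. It was higher in SLO ½ than in VEH by 0.22 ± 0.06 (adjusted p = 0.00335) and lower in SLO than in SLO ½ by a log2 change of −0.23 ± 0.06 (0.00345), with SLO and VEH overlapping. Both calls were lost once the trend over gene length was removed, at 0.11 and −0.14. NDUFA11, at 2.42 ± 0.23 CPM (SD, n = 3) in VEH and with 37.2% of its coding bases shared on its strand, was 0.58 ± 0.19 higher in SLO ½ (0.0107), a call lost without SLO ½ replicate 2 (0.47), and −0.48 ± 0.19 in SLO against SLO ½ (0.0413).

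Complex II oxidizes succinate to fumarate and so belongs to both the tricarboxylic acid cycle and the respiratory chain. SDHB, SDHC and SDHD all fell at both doses. SDHB, the iron-sulfur subunit (chr1:17018722-17054032), held 63.7, 63.3 and 64.4 CPM in VEH, 58.5, 56.8 and 58.5 in SLO ½ and 48.7, 43.0 and 45.3 in SLO. The groups descended in order without overlap. The log2 change was −0.14 ± 0.05 at SLO ½ (adjusted p = 0.0205), lost without VEH replicate 3 (−0.13) or SLO ½ replicate 2 (−0.13), and −0.48 ± 0.05 at SLO (2.71e-09), and the doses differed by −0.34 ± 0.05 (4.19e-06).

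SDHD, a membrane anchor (chr11:112086824-112120016), went from 68.1, 67.1 and 74.7 CPM in VEH to 55.3, 60.6 and 59.7 in SLO ½ and 50.7, 49.8 and 48.4 in SLO. The 3 groups were again separate, with changes of −0.26 ± 0.05 (adjusted p = 1.13e-04) and −0.50 ± 0.05 (2.69e-09) and a difference between doses of −0.24 ± 0.05 (7.47e-04). Another annotated gene on its strand shares 47.7% of the coding bases of SDHD. SDHC, the other anchor, fell by a similar amount at both doses, by 14.3% in SLO ½ (0.00199) and 14.5% in SLO (0.00137), and its difference between doses had an interval of −0.13 to 0.12. SDHA, the flavin subunit, held 9.44 to 10.8 CPM over VEH and SLO and did not pass, with a SLO interval of −0.22 to 0.18 and the shared bases given earlier.

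No complex III gene passed the test in SLO ½, where 52.0% of all genes tested did. In SLO, 7 of 9 fell (77.8%, against 32.1% of all genes called lower). UQCRC1 and UQCRC2 are the core proteins on the matrix side. UQCRC1 (chr3:48599002-48610976) held 92.4, 84.0 and 92.9 CPM in VEH, 84.5, 88.4 and 84.0 in SLO ½ and 74.8, 71.0 and 71.2 in SLO. SLO stood below both other groups, which overlapped. The log2 fold change was −0.31 ± 0.05 in SLO (adjusted p = 1.69e-06), against −0.07 ± 0.05 in SLO ½ (0.227). UQCRC2 fell by 17.4% in SLO (4.49e-06), from 155 ± 9.11 to 128 ± 3.84 CPM (SD, n = 3).

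UQCRB, which lies beside the coenzyme Q site, fell by 19.0% in SLO (adjusted p = 2.09e-06), with 173, 162 and 172 CPM in VEH and 146, 129 and 136 in SLO. The electron-carrying subunits CYC1 (cytochrome c1) and UQCRFS1 (the Rieske iron-sulfur protein) fell by 20.4% (5.18e-05) and 19.0% (1.27e-04). UQCR11, a small subunit, held 15.2, 14.9 and 15.8 CPM in VEH, 16.9, 14.2 and 17.7 in SLO ½ and 11.5, 11.5 and 11.2 in SLO. Only SLO stood apart, and the difference between doses was −0.52 ± 0.09 (3.54e-05), the largest of any member called in that comparison. All coding bases of UQCR11 lie within another annotated gene of the same strand. UQCRQ and UQCR10 did not pass, with SLO intervals of −0.13 to 0.08 and −0.23 to 0.02.

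Of the 13 tested complex IV genes, 5 were called in SLO (38.5%, against 64.9% of all genes tested) and 2 in SLO ½ (15.4% against 52.0%). COX7C (chr5:86617928-86620962) held 138, 122 and 132 CPM in VEH, 114, 115 and 113 in SLO ½ and 106, 98.1 and 109 in SLO, in separate groups. It fell by 12.8% (adjusted p = 7.30e-04) and 20.4% (5.64e-07). COX7A2L, which joins complexes III and IV into supercomplexes, fell by 13.3% in SLO ½ (3.90e-04) and 15.0% in SLO (6.07e-05). COX6C and COX5B also fell in SLO, by 11.4% (0.00552) and 11.2% (0.0147). Both calls were lost with library totals alone as the scaling, at −0.10 and −0.097, that of COX6C also without VEH replicate 3 (−0.11) and that of COX5B without SLO replicate 2 (−0.13).

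COX7A2, the common form of subunit 7A, rose. Its values were 44.1, 38.6 and 43.8 CPM in VEH, 45.3, 44.8 and 45.6 in SLO ½ and 51.7, 48.9 and 49.4 in SLO, and the SLO change was 0.24 ± 0.06 (adjusted p = 4.18e-04). COX7A1, the heart and muscle form, was too low to test. COX4I1, the ubiquitous subunit 4, held 138 to 153 CPM in VEH, 155 to 159 with SLO ½ and 135 to 144 with SLO. It did not pass against VEH at either dose (0.0518 and 0.103), and was 11.8% lower in SLO than in SLO ½ (0.00114). COX6A1, COX6B1 and NDUFA4 did not pass in SLO against VEH, with intervals of −0.08 to 0.39, −0.15 to 0.06 and −0.23 to 0.05, and their paralogs COX4I2, COX6A2 and NDUFA4L2 were too low to test. COX6B2, the testis form, held 0.55 to 1.31 CPM over all libraries, with an interval of −0.67 to 0.63.

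In complex V, 3 of the 5 subunits of the catalytic F1 head fell and 1 rose in SLO (80.0% called, against 64.9% of all genes tested). ATP5F1A, the alpha subunit (chr18:46080248-46104334), had the smallest p of all members. It held 276, 268 and 289.5 CPM in VEH, 247, 234 and 249 in SLO ½ and 195, 189 and 195 in SLO, with no overlap between groups. Its log2 change was −0.19 ± 0.04 in SLO ½ (adjusted p = 2.52e-04) and −0.52 ± 0.04 in SLO (3.95e-12), and the doses differed by −0.33 ± 0.04 (1.42e-07). ATP5F1B, the beta subunit, fell by 17.6% in SLO (4.73e-07) and ATP5F1C, the gamma shaft, by 21.3% (3.24e-07). ATP5F1E, the small epsilon subunit, rose instead, from 143 to 155 CPM over the VEH libraries to 178 to 179 with SLO ½ and 166 to 177 with SLO, a change of 0.26 ± 0.04 (4.29e-06) and 0.19 ± 0.04 (1.34e-04).

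The c ring, which turns as protons pass, is built from 1 protein encoded by ATP5MC1, ATP5MC2 and ATP5MC3, and all 3 genes fell in SLO. Of all genes tested, 64.9% were called in SLO, 32.1% lower. ATP5MC2 held 72.5, 64.0 and 66.3 CPM in VEH, 59.2, 56.3 and 56.1 in SLO ½ and 46.4, 47.8 and 44.8 in SLO, with changes of −0.24 ± 0.05 (adjusted p = 2.73e-04) and −0.54 ± 0.05 (5.06e-10). The groups descended without overlap. ATP5MC1 fell by 14.6% (0.00248) and ATP5MC3 by 15.2% (5.46e-05) in SLO.

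In the peripheral stalk, which keeps the head from turning, 3 of 4 genes fell in SLO. ATP5PB fell by 10.1% in SLO ½ (adjusted p = 0.00293) and 19.9% in SLO (1.43e-07), with 126 to 136 CPM in VEH and 103 to 105 in SLO. ATP5MG, a membrane subunit at the dimer interface, rose, with 21.8, 22.6 and 23.0 CPM in VEH, 27.0, 26.1 and 27.5 in SLO ½ and 29.9, 31.3 and 29.2 in SLO. Its 3 groups did not overlap, the SLO change was 0.42 ± 0.06 (1.59e-06), and 39.1% of its coding bases are shared with another gene on its strand.

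**Figure D4:**
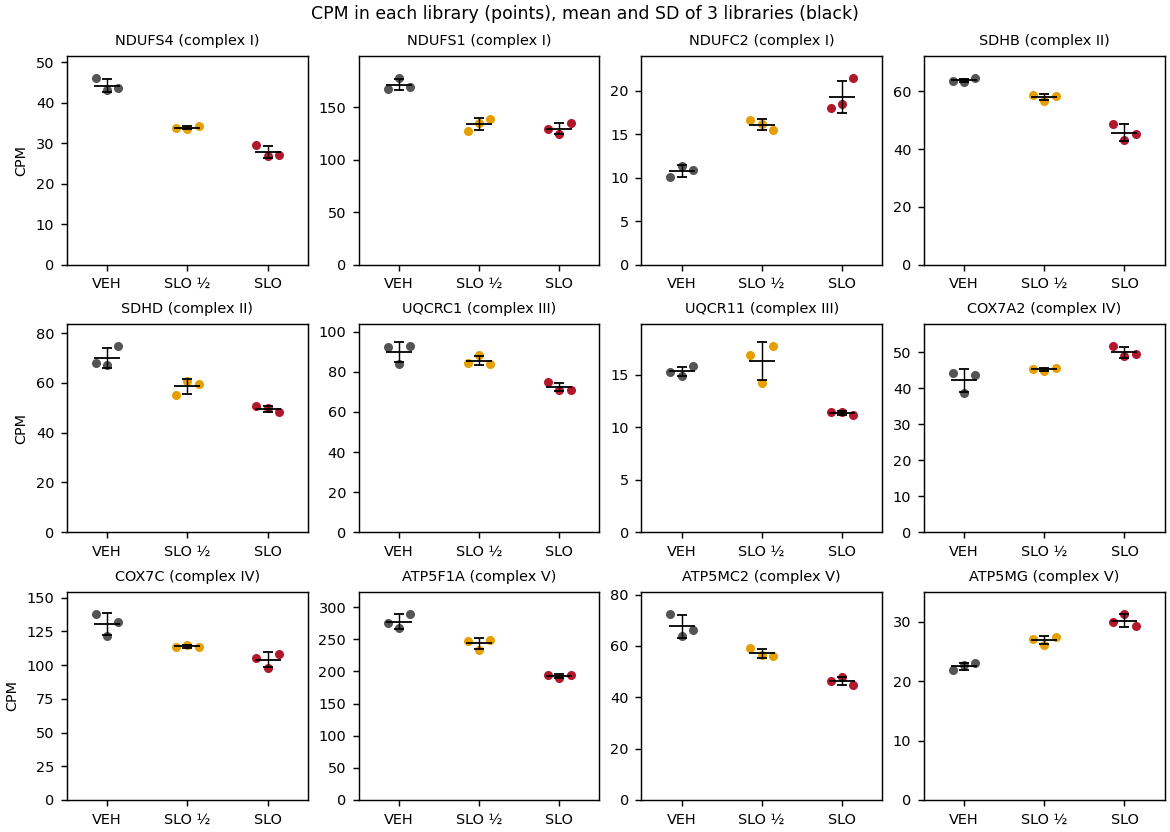
CPM of 12 members in each library of VEH, SLO ½ and SLO (points), with the mean and SD of 3 libraries in black and axes from 0. NDUFS4, SDHB and ATP5F1A descend with dose, UQCRC1 is lower in SLO alone, and NDUFC2 rises from a mean of 10.8 CPM in VEH to 19.3 CPM in SLO.

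Sorted by which of the 3 comparisons passed, 13 members were lower at both doses and lower in SLO than in SLO ½, among them NDUFS4, NDUFS6, SDHB, SDHD, COX7C, ATP5F1A and ATP5MC2. A further 7 were lower at both doses with no called difference between them, among them NDUFS1 and SDHC. Another 16 were lower in SLO than in both other groups without passing in SLO ½, including the 7 complex III genes. ATP5MG and NDUFC2 were higher in all 3 comparisons, and 23 members passed in none. The calls between the doses of ATP5MC3, ATP5MG, COX6B1, COX6C, COX7A2, COX7C, NDUFA11 and NDUFV1 were each lost when any of 3 to 5 treated libraries was left out, and the count of members higher in SLO than in SLO ½ then ran from 0 to 3. The group mean fell from VEH to SLO ½ to SLO for 47 members, rose in that order for 9, was highest in SLO ½ for 20 and lowest there for 2. Neither the patterns of calls nor these orders were counted over all genes tested. Whether they are more frequent among the members is thus not known. Of all genes tested, 64.9% were called in SLO against VEH, 52.0% in SLO ½ against VEH and 41.1% between the doses. Among the 28 members that did not pass in SLO against VEH, the 95% interval lay within 1.5-fold for 25, the others being NDUFA13, NDUFV2 and COX6B2.

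The promoters of the members were compared for letters recognized by factors known for respiratory genes. RefSeq windows from 250 bases before to 50 bases after the start, on GRCh38.p14, were matched for 69 of the 88 members. The motifs searched on both strands were GCGCATGCG for NRF1, CCGGAAGT for the ETS family that includes GABPA, AAGATGGCG for YY1 and TCAAGGTCA for ESRRA. The NRF1 letters occurred in 14.5% of member promoters and 2.1% of all 27305 promoters, the ETS letters in 14.5% and 4.44%, the YY1 letters in 11.6% and 1.85%, and the ESRRA letters in 1.45% and 0.359%. At least 1 of the 4 occurred in 36.2% of member promoters and 8.2% of all. By response in SLO, 15 of 34 promoters of members that fell held a match (44.1%), as did 0 of 8 of those that rose and 9 of 22 of those that did not pass (40.9%). These matches describe letters and were not tested as sites.

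From each complex, 1 member that fell in SLO and holds a match is shown so that the letters can be seen in place. Each sequence is the 180 bases before the RefSeq start on GRCh38.p14, 5′ to 3′ along the gene's strand, with matches that lie wholly inside it in capitals. They are NDUFS6 (chr5:1801227-1801406, plus strand, NRF1), SDHD (chr11:112086693-112086872, plus strand, overlapping NRF1 matches on both strands and ETS on the minus strand), UQCRH (chr1:46303518-46303697, plus strand, ETS), COX5B (chr2:97645882-97646061, plus strand, ETS) and ATP5MC2 (chr12:53676084-53676263, minus strand, NRF1).
NDUFS6: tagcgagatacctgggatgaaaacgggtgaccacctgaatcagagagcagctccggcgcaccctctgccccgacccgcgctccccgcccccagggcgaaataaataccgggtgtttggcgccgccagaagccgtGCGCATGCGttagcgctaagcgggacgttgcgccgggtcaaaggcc
SDHD: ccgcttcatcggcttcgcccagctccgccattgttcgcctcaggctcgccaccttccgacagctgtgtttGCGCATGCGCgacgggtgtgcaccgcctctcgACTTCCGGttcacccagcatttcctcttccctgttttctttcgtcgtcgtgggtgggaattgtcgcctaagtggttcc
UQCRH: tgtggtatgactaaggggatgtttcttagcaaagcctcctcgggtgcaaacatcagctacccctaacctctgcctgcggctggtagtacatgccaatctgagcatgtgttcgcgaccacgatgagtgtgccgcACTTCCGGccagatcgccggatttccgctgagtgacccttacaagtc
COX5B: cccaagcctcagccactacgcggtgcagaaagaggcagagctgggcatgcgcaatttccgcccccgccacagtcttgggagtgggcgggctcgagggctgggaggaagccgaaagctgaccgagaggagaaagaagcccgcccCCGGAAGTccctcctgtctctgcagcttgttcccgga
ATP5MC2: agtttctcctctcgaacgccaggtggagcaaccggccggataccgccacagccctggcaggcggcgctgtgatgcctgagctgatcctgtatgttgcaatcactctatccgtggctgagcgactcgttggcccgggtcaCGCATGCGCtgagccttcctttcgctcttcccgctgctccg
A second ETS match of COX5B begins at position −5, runs past the end of the stretch and is in lower case. SDHD holds the NRF1 letters from position −110 and the ETS letters from position −78 relative to the start, and its transcript fell by 29.2% in SLO. UQCRH and COX5B, each with the ETS letters, fell by 11.2%, and the call of UQCRH was lost with library totals alone as the scaling (−0.096).

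The subunits encoded in mitochondrial DNA went opposite to the nuclear ones. All 13 were higher in SLO and in SLO ½ than in VEH, at medians of 0.80 and 0.71 on the log2 scale. Between the doses, 3 were higher in SLO than in SLO ½ (23.1%). Of all genes tested, 32.9% were called higher in SLO than in VEH, 26.7% in SLO ½ than in VEH and 20.8% between the doses. Their summed level was 10990 CPM for VEH, 18210 for SLO ½ and 19880 for SLO. In complex I, MT-ND1 held 988, 938 and 749 CPM in VEH, 1581, 2041 and 1580 in SLO ½ and 1909, 2404 and 2052 in SLO, a rise of 1.25 ± 0.09 in SLO (adjusted p = 1.96e-13), while the nuclear core of that complex fell. All genes on mitochondrial DNA, not only these 13, took 1.30 to 1.61% of gene reads in the VEH libraries, from poly(A)-selected RNA. Their share was 2.30 to 2.86% with SLO ½ and 2.51 to 3.12% with SLO. Leaving all genes on mitochondrial DNA out before scaling ended no call of a tested member and moved no count of members by over 1.5 times.

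Other genes of the pathway were read from lists of assembly factors, carriers and regulators. Of 18 assembly factors of complex I, 6 fell and 1 rose in SLO, and of 34 tested for complexes II to V, 14 fell and 9 rose. These are 38.9% and 67.6% called, against 64.9% of all genes tested, with 32.1% lower and 32.9% higher. The first share was below the background and the second near it. ECSIT, a complex I assembly factor, fell by 47.5% (adjusted p = 7.49e-10), and TTC19, needed for complex III, rose 1.78-fold (8.34e-15). Of 15 tested carriers and coenzyme Q genes, 7 fell and 4 rose, with COQ3 61.7% lower (1.13e-11). Of 14 tricarboxylic acid cycle enzymes, 7 fell and 3 rose. The carriers and coenzyme Q genes were called in 73.3% and the cycle enzymes in 71.4%, against the same 64.9%. SUCLG2, a subunit of succinyl-CoA ligase, was 48.4% lower (1.61e-14).

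Mitochondrial ribosomal proteins, which translate the mitochondrial transcripts, fell in 48 of 77 and rose in 6, at a median of −0.25, and MRPL3 was 48.9% lower in SLO (adjusted p = 1.05e-17). Of 15 other mitochondrial proteins 14 fell and none rose, with the chaperone HSPD1 46.8% lower (4.34e-17). Among 16 regulators, 13 fell and 1 rose. The ribosomal, other mitochondrial and regulator lists were called in 70.1%, 93.3% and 87.5%. Of all genes tested, 64.9% were called, with 32.1% lower and 32.9% higher. NRF1 fell by 28.0% (2.91e-05), GABPA by 19.0% (1.93e-06), TFAM, which maintains and transcribes mitochondrial DNA, by 20.9% (3.94e-08), and MYC by 39.5% (1.10e-13). PPARGC1A, a coactivator of respiratory genes, was the one that rose, by 2.61 ± 0.35 on the log2 scale (1.65e-07) from 0.35 ± 0.16 CPM (SD, n = 3) in VEH.

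**Figure D5:**
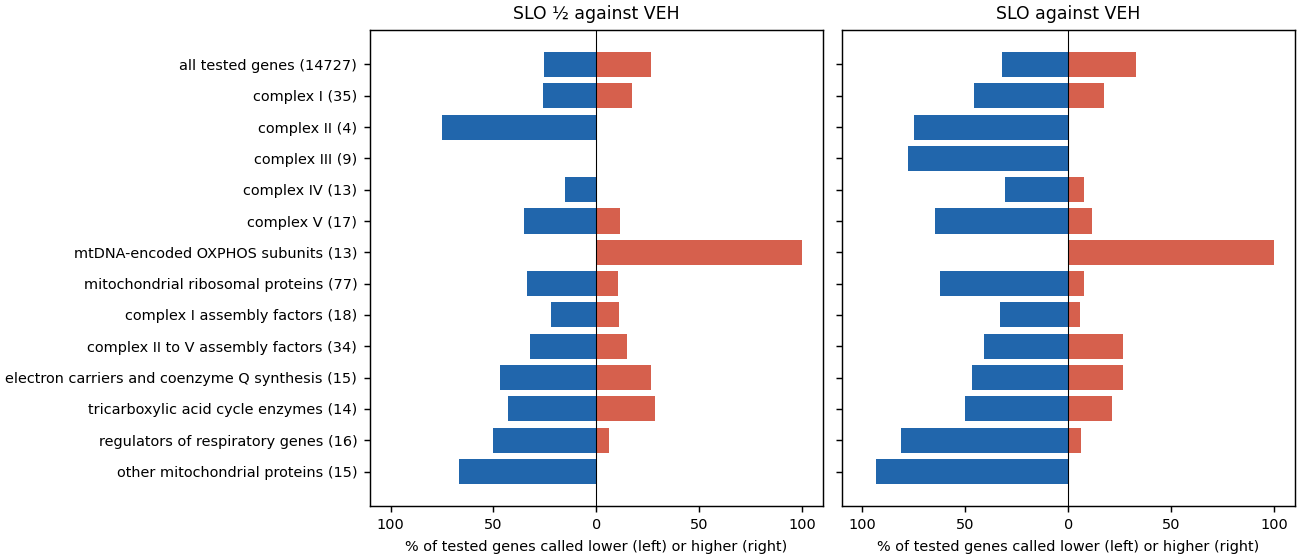
Percent of tested genes called lower (blue, left) or higher (red, right) than VEH in SLO ½ and SLO, for all genes, each complex and each pathway list, with the number tested in brackets. In SLO, 48 of 77 mitochondrial ribosomal proteins were lower and all 13 mitochondrially encoded subunits were higher, against 32.1% lower and 32.9% higher over all genes tested.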

How the data were processed

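RNA of HMC3 cells was sequenced in 9 libraries, 3 for each of VEH, SLO ½ and SLO (KAPA RNA HyperPrep with poly(A) selection). The authors trimmed reads with Trimmomatic 0.38 and aligned them to GRCh38 with STAR 2.7.1a, and the deposited counts are STAR's unnormalized reads per gene and strand. The deposited TPM values were scaled by the authors for gene length and library size. The annotation release is not given in the sources used here.

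The stranded counts were tested with edgeR 4.0.16 (R 4.3.3) by the quasi-likelihood test, with TMM scaling, filterByExpr and 1 fit over all 9 libraries with group as the only term. P-values were adjusted by Benjamini-Hochberg over 14727 genes and called below 0.05. The lines of reads assigned to no gene, 18.0 to 20.1% of the total, were left out. The genome coordinates and shared coding bases come from the reference annotation, and the promoters from RefSeq. Alternatives used DESeq2 1.42.0, limma 3.58.1 on log2(TPM + 1) and log2(TPM + 0.1), other scalings and filters, a replicate block, and each library left out. The fit was tested on simulated counts. Category was read as holding protein_coding, which 88 of the genes with matching symbols did. Members with full statistics were those with the 3 smallest p in each complex, those that moved against the majority of their complex, the 3 largest changes per comparison, the 3 smallest p between doses, paralog sets and the nuclear core of complex I. Of these, 1 member is not reported here by name and enters the counts and medians only. NDUFS6, NDUFS5, SDHA, CYC1, UQCRFS1, UQCRQ, UQCR10, UQCRH, COX5B, COX6C, ATP5F1B and ATP5F1C were named after their values were seen. The members and lists were chosen with earlier results of these data known, so no test over a list was run. Pseudogenes named after members held 1.10 to 1.31% as many reads as the members.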

Additional observations from a re-analysis of the deposited data

How the results depend on the processing

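Among the 78 tested members, no called one changed direction under any setting run, whereas the medians of complexes I and III in SLO ½ turned positive with library size only. Members called numbered 47 to 56 in SLO against VEH, 22 to 29 in SLO ½ against VEH and 30 to 39 between the doses when each library was left out in turn. The replicate numbers did not pair the samples (same-number correlations of 0.0028 to 0.0873), and a fit with the replicate block called 50, 29 and 37 members. DESeq2 called 50, 25 and 27, and limma on log2(TPM + 1) without a filter called 17 between the doses.

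The other values are medians of log2 fold change by complex. With library size only, SLO against VEH gave −0.084 for complex I, −0.28 for II, −0.23 for III, −0.00694 for IV and −0.18 for V, SLO ½ against VEH gave 0.017 for I, 0.011 for III and −0.029 for V, and the doses differed by −0.10 in I. That scaling put the median of all genes at 0.089 in SLO against VEH, from 0.014. With the gene length trend removed, SLO gave −0.18 for I and −0.29 for V, and SLO ½ gave −0.063, −0.26, −0.10 and −0.13 for I, II, III and V. With at least 10 counts in every library, SLO gave −0.13 for I. On limma with log2(TPM + 1), log2(TPM + 0.1) and no filter, SLO ½ gave −0.068, −0.077 and −0.065 for I and −0.12 in each for V, and the doses differed by −0.090, −0.091 and −0.086 for I and by −0.13, −0.13 and −0.089 for V. With no expression filter the doses differed by −0.13 in V. Without members that share over 50% of coding bases, an alternative chosen after seeing the data, complex II gave −0.48 in SLO against VEH and −0.24 between the doses. Without 1 library, complex III ranged from −0.34 (without VEH replicate 2) to −0.23 (without VEH replicate 3) in SLO and from −0.090 (without VEH replicate 2) to −0.0094 (without VEH replicate 1) in SLO ½, and complex V in SLO ½ from −0.093 to −0.037 (without VEH replicates 2 and 3). The causes were not tested.

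The depth limits members near 1 CPM or that share bases with a neighbour: NDUFV2, NDUFA13 and COX6B2 did not pass and had intervals in SLO against VEH that reached beyond 1.5-fold.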
